A study of Mus musculus with 3 samples.

Results

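The genes that build the contractile apparatus of smooth muscle were followed in cultured mouse kidneys across 3 media. They are Acta2, Actg2, Tagln, Cnn1, Myl9, Myh11, Tpm2, Des, Lmod1 and Myocd. These 10 genes were chosen by name, with earlier results of these data known, from 19938 genes measured. Each was read by the probe set whose annotation names that gene alone, and each of the 10 had 1 such probe set. The samples were kidneys of C57BL/6 embryos at embryonic day 11.5, kept on Transwell filters for 48 h. One group was grown in serum-free DMEM with retinoic acid, the form of vitamin A that binds nuclear receptors (the retinoic acid culture). Another was grown in serum-free DMEM alone, and the last in DMEM with 10% fetal bovine serum (FBS). All 3 groups share strain, stage and time in culture, and the sources used here state neither the dose of retinoic acid nor the number of embryos per array. The series title gives the aim as finding genes that respond to retinoic acid in the developing kidney.

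RNA of each medium went to 1 Affymetrix Mouse Gene 1.0 ST array, so there is no replicate, no error and no test for any value, and the number of arrays limits the precision. Median intensity over all probe sets was 84.7 in the retinoic acid culture, 85.5 in serum-free medium and 81.5 in serum. Levels are log2 intensities, a difference of 1 is 2-fold, and a gene was counted as changed when it differed at least 2-fold and the higher of both levels reached a floor of 7.12, the median of all gene values. All 11 embryonic kidney markers checked, among them Pax2, Wt1 and Foxd1, were at or above this floor on every array. The transcript Xist of the inactive X was at 9.79 with retinoic acid, 11.48 in serum-free medium and 10.84 in serum, and the Y-linked gene Uty was at 8.38, 7.29 and 7.93 in the same order, so the sex of the embryos and the medium cannot be told apart.

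Smooth muscle cells contract when myosin pulls on filaments of smooth muscle actin, and phosphorylation of the myosin light chain switches this on. Many of the genes concerned are activated by serum response factor (SRF) bound to a DNA element called the CArG box, with myocardin (Myocd) or the myocardin-related factors Mrtfa and Mrtfb as coactivators. SRF takes its name from the response of its first known target genes to serum. In the urinary tract, smooth muscle wraps the ureter and the blood vessels, and the mesenchyme around the ureter gives rise to the ureteric muscle. Acta2 is also made by activated fibroblasts and some cultured mesenchymal cells, so it does not by itself mark muscle.

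Promoter sequence is shown as a description, to let the letters before each start be read beside the levels. RefSeq windows on GRCm38.p6, from 250 bases before to 50 bases after the annotated start, were matched by symbol for 6 of the 10 genes. The others, Actg2, Tagln, Myh11 and Myocd, are named only. The upstream 250 bases are shown for 3 genes that were lower without serum and for Des, whose levels lay close together. Capitals mark CArG boxes, both exact ones and those in which 1 of the central A or T bases is G or C.
Acta2 (chr19:34255374-34255623, minus strand): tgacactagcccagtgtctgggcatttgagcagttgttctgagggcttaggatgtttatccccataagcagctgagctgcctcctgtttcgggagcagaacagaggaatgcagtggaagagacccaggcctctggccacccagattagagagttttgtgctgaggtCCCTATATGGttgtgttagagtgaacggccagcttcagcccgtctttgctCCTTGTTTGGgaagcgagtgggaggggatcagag
Myl9 (chr2:156775214-156775463, plus strand): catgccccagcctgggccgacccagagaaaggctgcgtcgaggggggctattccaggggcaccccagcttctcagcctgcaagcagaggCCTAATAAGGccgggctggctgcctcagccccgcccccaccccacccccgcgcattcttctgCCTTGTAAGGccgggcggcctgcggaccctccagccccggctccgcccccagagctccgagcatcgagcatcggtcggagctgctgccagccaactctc
Cnn1 (chr9:22099003-22099252, plus strand): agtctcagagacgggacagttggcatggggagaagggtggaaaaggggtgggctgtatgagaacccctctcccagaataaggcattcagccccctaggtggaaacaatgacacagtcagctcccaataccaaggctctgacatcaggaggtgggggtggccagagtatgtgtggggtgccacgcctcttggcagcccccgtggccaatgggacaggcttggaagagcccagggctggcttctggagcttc
Des (chr1:75360042-75360291, plus strand): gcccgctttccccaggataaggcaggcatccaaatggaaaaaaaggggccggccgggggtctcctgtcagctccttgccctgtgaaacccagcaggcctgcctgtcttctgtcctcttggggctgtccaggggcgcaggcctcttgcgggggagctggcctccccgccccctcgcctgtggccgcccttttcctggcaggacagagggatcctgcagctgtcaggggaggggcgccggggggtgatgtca
Acta2 holds CCCTATATGG, from 84 to 75 bases before the start, and CCTTGTTTGG, from 34 to 25 bases before it, each with 1 central base that is G or C. Myl9 holds the exact box CCTAATAAGG from 161 to 152 bases before its start and the near match CCTTGTAAGG from 99 to 90 bases before it. The windows of Cnn1, Des, Tpm2 and Lmod1 held neither kind. The box reads the same on both strands, so 1 pass covers both. An exact box was found in 1 of the 6 windows and in 1.63% of 32851 promoter windows, and an exact or near box in 2 of 6 and in 9.98% of all windows. Windows of 1 chromosome were left out, so all windows means these 32851. The MCAT element bound by TEAD factors, CATTCC or its reverse complement GGAATG, was found in Acta2 and Lmod1, and in 14.7% of all windows. These matches describe the letters of the windows alone.

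The 2 smooth muscle actins had large differences at both steps. Acta2, the smooth muscle alpha-actin of vessels and ureter, had an intensity of 843 with retinoic acid, 2211 in serum-free medium and 5468 in serum, or 9.72, 11.11 and 12.42 on the log2 scale. Its 3 levels stood well apart, lowest with retinoic acid and highest in serum. The differences were -1.39 for retinoic acid against serum-free and -1.31 for serum-free against serum, 2.62-fold and 2.47-fold. Over both changes of medium the retinoic acid culture had 15.4% of the serum level.

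Actg2 encodes the gamma-actin of enteric and other visceral smooth muscle. Its levels were 5.67 with retinoic acid, 7.07 in serum-free medium and 9.25 in serum, in the same order as those of Acta2. Its difference for serum-free against serum was -2.18 (4.54-fold). For retinoic acid against serum-free it was -1.40, but both of those values lay under the floor, where background takes up more of an intensity, so the size is uncertain and the gene was not counted in that comparison. With 32 added to all intensities, which damps low values, that difference was still 2-fold. Acta2 and Actg2 encode near-identical proteins, and whether their probes share signal was not tested.

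Among the actin-binding proteins, Tagln encodes transgelin, a small protein on actin filaments and an early marker of smooth muscle. It was at 6.52 with retinoic acid, 7.84 in serum-free medium and 9.76 in serum. In intensity these are 92.0, 229 and 865, so the retinoic acid culture had 40.1% of the serum-free level and the serum-free culture had 26.5% of the serum level. Only the retinoic acid value was under the floor.

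Cnn1 encodes calponin, which binds actin and restrains the myosin motor, and is usually taken as a marker of more mature smooth muscle. It was at 5.77 with retinoic acid, 6.79 in serum-free medium and 9.54 in serum. The gap to serum was the widest of the group, since the serum-free level was 6.72-fold lower than the serum level (-2.75) and the retinoic acid level 13.6-fold lower (-3.77). Only the serum level reached the floor, so these sizes are uncertain, and with 32 added to the intensities they became -2.44 and -3.16. The value for retinoic acid against serum-free was -1.02, with both arrays under the floor, and it became -0.72 with the same addition. Of 10169 genes at or above the floor in retinoic acid against serum, Cnn1 had the lowest difference, Actg2 the next, then Tagln in place 3 and Acta2 in place 5. Cnn1, Actg2 and Tagln were under the floor with retinoic acid and entered this set through their serum level, so their exact places are uncertain.

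The myosin subunits differed less. Myl9, the regulatory light chain whose phosphorylation starts contraction, was at 9.13 with retinoic acid, 9.78 in serum-free medium and 10.99 in serum, above the floor on every array. Its difference was -0.65 for retinoic acid against serum-free (1.57-fold) and -1.21 for serum-free against serum (2.31-fold), so it passed the 2-fold rule without serum but not on addition of retinoic acid. Myh11, the smooth muscle myosin heavy chain and the most specific marker of the differentiated cell, was at 5.89 with retinoic acid, at the same 5.89 in serum-free medium, and at 6.89 in serum. All of its values lay under the floor, and its differences from serum, 1.99-fold, were just short of the rule. The intensities were 59.3 on both serum-free arrays and 118 in serum. An exactly equal pair is common here, since 51.6% of all genes had equal values in these 2 cultures, and it is no measure of equal expression.

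Tpm2 differed from the actins in where its levels parted. It encodes beta-tropomyosin, which lies along the actin filament. It was at 8.55 with retinoic acid, 9.49 in serum-free medium and 9.31 in serum, so the serum-free and serum levels were close (0.18) and the retinoic acid level was the low one. Its difference for retinoic acid against serum-free was -0.95, or 1.93-fold, just under the 2-fold rule, and it was -0.76 against serum.

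The other 3 genes had smaller differences. Des encodes desmin, the muscle intermediate filament, and was at 9.29 with retinoic acid, 9.33 in serum-free medium and 9.29 in serum, a spread of 0.05 in a gene well above the floor. Its retinoic acid and serum values were exactly equal, which is no measure of equal expression. Lmod1 encodes leiomodin, which starts new actin filaments in smooth muscle, and was at 5.76, 5.76 and 5.83 in that order of media, all under the floor. Myocd, the coactivator, was also under the floor throughout, at 6.39 with retinoic acid, 6.83 in serum-free medium and 6.69 in serum. For Lmod1 and Myocd, levels so low leave a difference of moderate size hard to see.

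**Figure D1:**
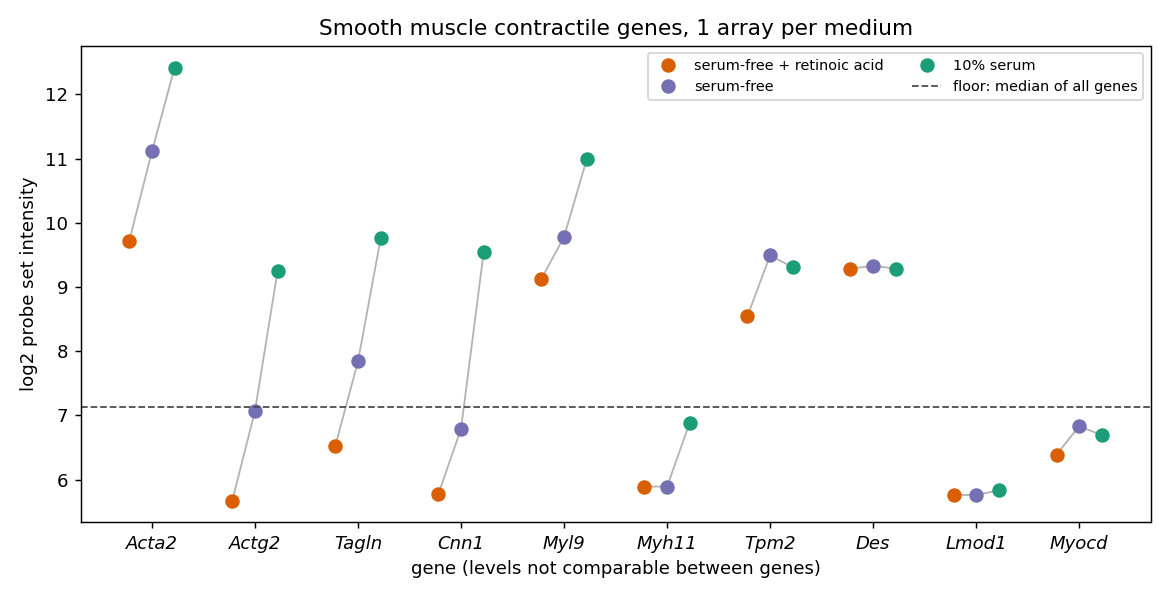
Log2 probe set intensity (vertical axis) of the 10 smooth muscle contractile genes (horizontal axis), with 1 point per array in the order retinoic acid, serum-free, 10% serum from left to right; the dashed line is the floor of 7.12. Acta2, Actg2, Tagln, Cnn1 and Myl9 climb from the retinoic acid point to the serum point, Tpm2 is low only with retinoic acid, and Des is level at about 9.29.

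The comparison of retinoic acid with serum-free medium asked what the retinoid added. Acta2 and Tagln were at least 2-fold lower, 2 of the 10 genes, where 0.613% of the 10111 genes that reached the floor were lower by that rule. Of the 10, 0 were higher, where 1.05% of genes were. Only 5 of the 10 genes reached the floor here, Tagln through serum-free medium alone, and 1 gene, Acta2, was lower when both levels had to reach it. Without the floor 4 of 10 were at least 2-fold lower, the others being Actg2 and Cnn1, against 0.371% of all 19938 genes. The median difference of the 10 genes was -0.80, with a range from -1.40 to 0.00 and 8 differences below 0, while the median over all genes was 0.00. Of all 19938 genes, 5574 were below 0, 4069 above 0 and 10295 exactly equal. No contractile gene had a higher level with retinoic acid than in serum-free medium. Myh11 and Lmod1 had exactly equal values there, and Actg2, Cnn1 and Myocd lay under the floor on both arrays.

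The comparison of serum-free medium with serum asked what the loss of serum changed. Acta2, Actg2, Tagln, Cnn1 and Myl9, 5 of the 10 genes, were at least 2-fold lower without serum, where 0.699% of 10156 genes were lower by the same rule, and 0 were higher, where 0.876% of genes were. Of the 10 genes, 7 reached the floor, Actg2 and Cnn1 through serum alone, and 3 were lower when both levels had to reach it. The median difference of the 10 was -1.10, with a range from -2.75 to 0.18, against 0.00 for all genes. The values above 0 belonged to Tpm2 (0.18), Myocd (0.14) and Des (0.05).

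Retinoic acid in serum-free medium was also set against serum, and here both the retinoid and the serum differ. The same 5 genes, Acta2, Actg2, Tagln, Cnn1 and Myl9, were at least 2-fold lower in the retinoic acid culture, where 0.816% of 10169 genes were lower, and 0 were higher, where 1.04% of genes were. Actg2, Tagln and Cnn1 reached the floor through serum alone, and 2 genes, Acta2 and Myl9, were lower when both levels had to reach it. The median of the 10 was -1.43, against 0.00 for all genes, and the lowest values were -3.77 in Cnn1, -3.58 in Actg2, -3.23 in Tagln and -2.70 in Acta2. The 3 comparisons share their arrays, so their values are not independent of each other. In RNA of whole explants, fewer cells that express these genes and less RNA per cell cannot be told apart. Which cells gave the signal was not tested.

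**Figure D2:**
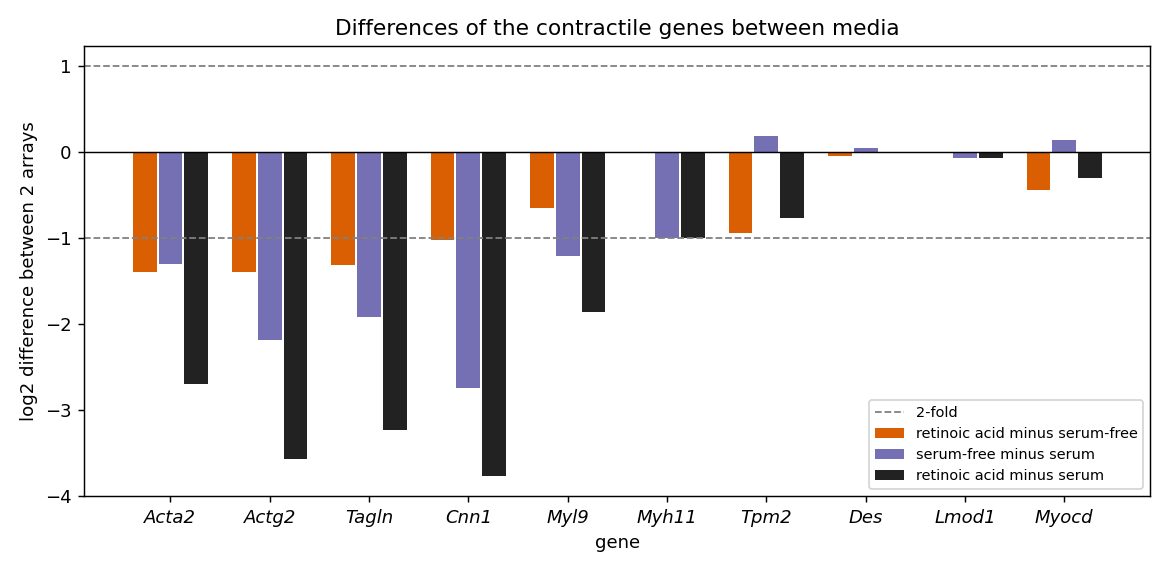
Log2 difference between 2 arrays (vertical axis) for each contractile gene (horizontal axis), with bars for retinoic acid minus serum-free, serum-free minus serum, and retinoic acid minus serum; dashed lines mark 2-fold. The serum-free minus serum bar is longest in Cnn1 (-2.75), and Acta2 has bars of similar length for both steps (-1.39 and -1.31).

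**Figure D3:**
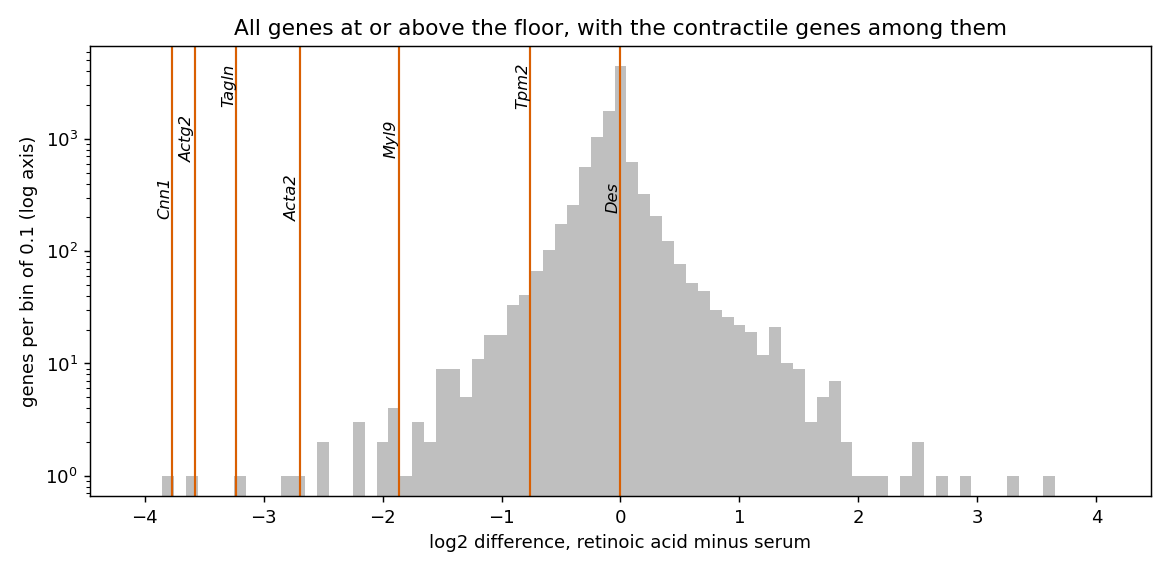
Number of genes (vertical log axis) by log2 difference of retinoic acid minus serum (horizontal axis, bins of 0.1) over the genes at or above the floor, with lines at the contractile genes among them. Cnn1, Actg2, Tagln and Acta2 lie at the far left, at -3.77, -3.58, -3.23 and -2.70, and Des, with exactly equal values, lies at 0.00.

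The non-muscle relatives of these genes, which serve the cytoskeleton of most cells, had small differences. Of 17 measured, 0 differed 2-fold in any of the 3 comparisons, and their median was 0.00 in each. Exactly equal values made up 5 of the 17 in each comparison involving the serum-free array, and 7 in the other. The medians fall on such ties, which are no measure of equal expression. Whether the signal of the most intense of these genes was compressed was not tested. Actb, the cytoplasmic beta-actin, stood at 13.61 on every array. Tagln2 differed by -0.10 for retinoic acid against serum, where Tagln differed by -3.23, and Cnn2 by -0.28, where Cnn1 differed by -3.77. Myl12a, a non-muscle light chain, differed by -0.26 in that comparison, against -1.86 in Myl9. The non-muscle tropomyosin gene Tpm4 differed by 0.01 for retinoic acid against serum-free, where Tpm2 differed by -0.95. The intermediate filament gene Vim had a wider range than its muscle partner, at -0.51 for retinoic acid against serum-free while Des differed by -0.05.

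**Figure D4:**
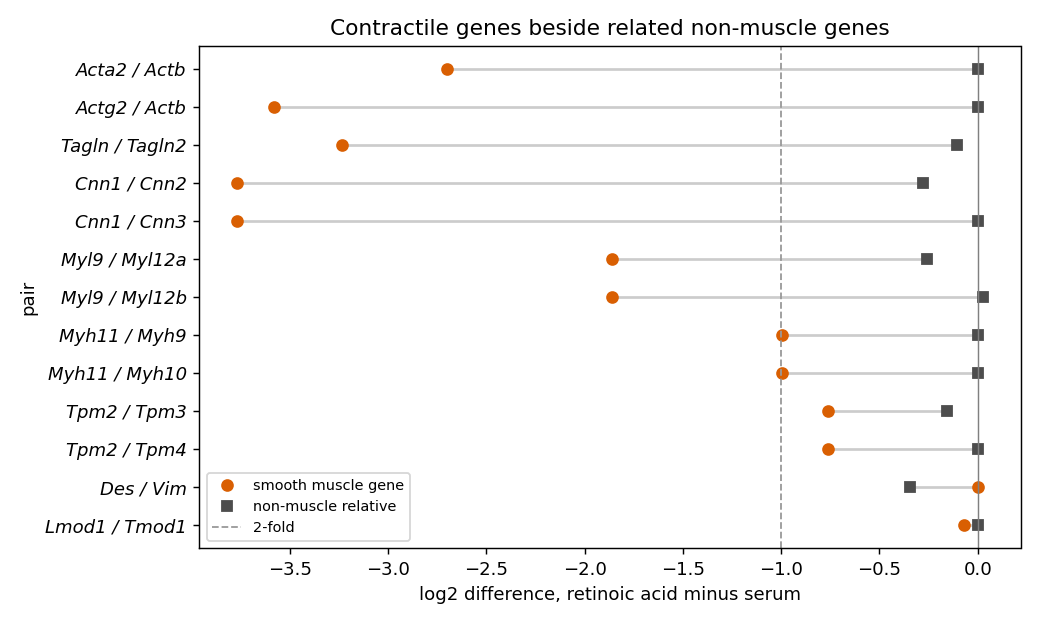
Log2 difference of retinoic acid minus serum (horizontal axis) for pairs of a smooth muscle gene (circles) and a related non-muscle gene (squares), 1 pair per row; the dashed line marks 2-fold. The squares lie between -0.35 (Vim) and 0.03 (Myl12b), while the circles of Cnn1, Actg2, Tagln, Acta2 and Myl9 lie between -3.77 and -1.86.

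A wider list was set beside the 10, and it is mixed. Besides genes of the contractile apparatus it holds others, such as Cav1, the integrin gene Itga8 and the matrix gene Npnt. Itga8 was at 10.28 with retinoic acid, 10.16 in serum-free medium and 10.17 in serum. Npnt was at 10.00, 10.10 and 10.32 in the same order. The medians of this list therefore do not stand for the contractile apparatus alone. Of 31 genes measured from a list of 32, of which 22 reached the floor in each comparison, 1 was at least 2-fold lower with retinoic acid than in serum-free medium and 0 were higher, where 0.613% of all genes that reached the floor were lower and 1.05% higher. It was Cav1, the caveolin of membrane pits, at -1.47 (2.77-fold), a larger difference than that of Acta2. Next were Hspb1, a small heat shock protein that binds actin, at -0.80, Pgm5, an adhesion-site protein, at 0.74, and Fhl2, an SRF-interacting LIM protein, at 0.46. The median of the list was -0.05.

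Without serum the median of that list was -0.17, and 1 gene was at least 2-fold lower, against 0.699% of genes, namely Fhl2 at -1.13 (7.70 in serum-free medium and 8.83 in serum). Cav1 differed by 0.69, Fhl1 by -0.63 and Tpm1, the alpha-tropomyosin gene, by -0.51. For retinoic acid against serum, 1 gene was again at least 2-fold lower, against 0.816% of genes. It was Hspb1, at -1.10, and its second probe set gave -1.07. Both probe sets gave -0.80 for retinoic acid against serum-free, and whether they share signal was not tested. Fhl1 was at -0.86 and Tpm1 at -0.85 for retinoic acid against serum. Nexn, an actin-binding protein gene, differed by -1.06 there, but it was under the floor on every array. Genes for the kinase that turns on the light chain (Mylk), for smoothelin (Smtn) and for caldesmon (Cald1) had values of -0.37, -0.20 and -0.30 there.

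Regulators of smooth muscle genes had a median of 0.00 for retinoic acid against serum-free. Of 32 measured, 3 were at least 2-fold higher with retinoic acid than in serum-free medium, against the 1.05% of genes just given, and 0 were lower. They were Tgfb3, a TGF-beta ligand, at 1.40, Tbx18, a transcription factor of the ureteric mesenchyme, at 1.22, and Gata6, a transcription factor of vascular smooth muscle, at 1.07. Tshz3, needed for ureteric muscle in mice, differed by 0.95 (10.45 against 9.50).

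Without serum, 0 regulators differed 2-fold, and the widest values were -0.73 in Bmp4, -0.68 in both Tgfb3 and Tbx18, and -0.65 in Jag1. For retinoic acid against serum, Heyl, a Notch target, was the 1 gene at least 2-fold lower, at -1.24 (8.70 against 9.94), against 0.816% of genes. Srf itself was at 9.34 with retinoic acid, 9.50 in serum-free medium and 9.63 in serum. Of its coactivators, Mrtfa had the exactly equal value of 8.61 on every array, which is no measure of equal expression. Mrtfb was at 10.21, 9.88 and 9.67 in the same order of media, highest where Acta2 was lowest.

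Markers of other cells that an explant can hold differed between the arrays too. Of 27 striated muscle markers, 25 lay under the floor on all 3 arrays, among them Myod1, Myog, Ckm and Ttn, and the summed intensity of the list was 1909 with retinoic acid, 2020 in serum-free medium and 2100 in serum. The same sum for the 10 contractile genes was 2795, 5154 and 11256. Only Actc1 of the striated list, an actin gene of heart muscle, was above the floor on every array, and its widest difference was -0.51, for retinoic acid against serum.

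Macrophage markers had a sum of 6574 with retinoic acid, 9110 in serum-free medium and 3160 in serum. Of 12, 10 were at least 2-fold higher without serum, against 0.876% of all genes that reached the floor, and 2, Cd68 and Mrc1, passed the rule as lower in the retinoic acid culture than in serum-free medium, against 0.613% of genes. Endothelial markers summed to 8024, 9441 and 6740 in the same order, and 0 of 10 differed 2-fold in any comparison, with Cdh5 widest at 0.81 for serum-free against serum. Of the 11 kidney markers, Ret was at least 2-fold higher with retinoic acid than in serum-free medium (9.92 against 8.42), where 1.05% of genes were. Without serum Pax8 (-1.17) and Ret (-1.16) were at least 2-fold lower, where 0.699% of genes were. The part of these cells in the differences of the contractile genes was not tested.

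Pericyte and mesangial markers, of which 11 were measured, had medians of -0.23 for retinoic acid against serum-free and 0.04 for serum-free against serum, with 0 genes past 2-fold. Pdgfrb, their receptor for platelet-derived growth factor, was at 10.38 with retinoic acid, 11.06 in serum-free medium and 10.97 in serum. Rgs5, a pericyte gene, was at 8.82, 9.43 and 9.71. Their summed intensity was 7589 with retinoic acid, 9415 in serum-free medium and 9267 in serum. Without serum this sum was near its serum level, while that of the contractile genes was lower. Such sums follow their most intense genes, and Acta2 alone made up 5468 of the contractile sum of 11256 in serum. Gata3 is counted both here and among the kidney markers, so the sum does not stand for pericytes alone.

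Of 15 stroma and matrix genes, 3 passed the rule as lower in the retinoic acid culture than in serum-free medium, with Vcam1 at -1.67, Lum at -1.59 and Postn at -1.20, against 0.613% of all genes that reached the floor. Without serum 2 were lower, Lox at -1.44 and Fbln5 at -1.16, against 0.699% of genes. The fibrillar collagen genes Col1a1, Col1a2 and Col3a1 had values of -0.09, -0.10 and 0.00 for serum-free against serum, and 0.00, 0.02 and -0.03 for retinoic acid against serum-free. The list had medians of -0.03 for retinoic acid against serum-free and 0.00 for serum-free against serum.

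**Figure D5:**
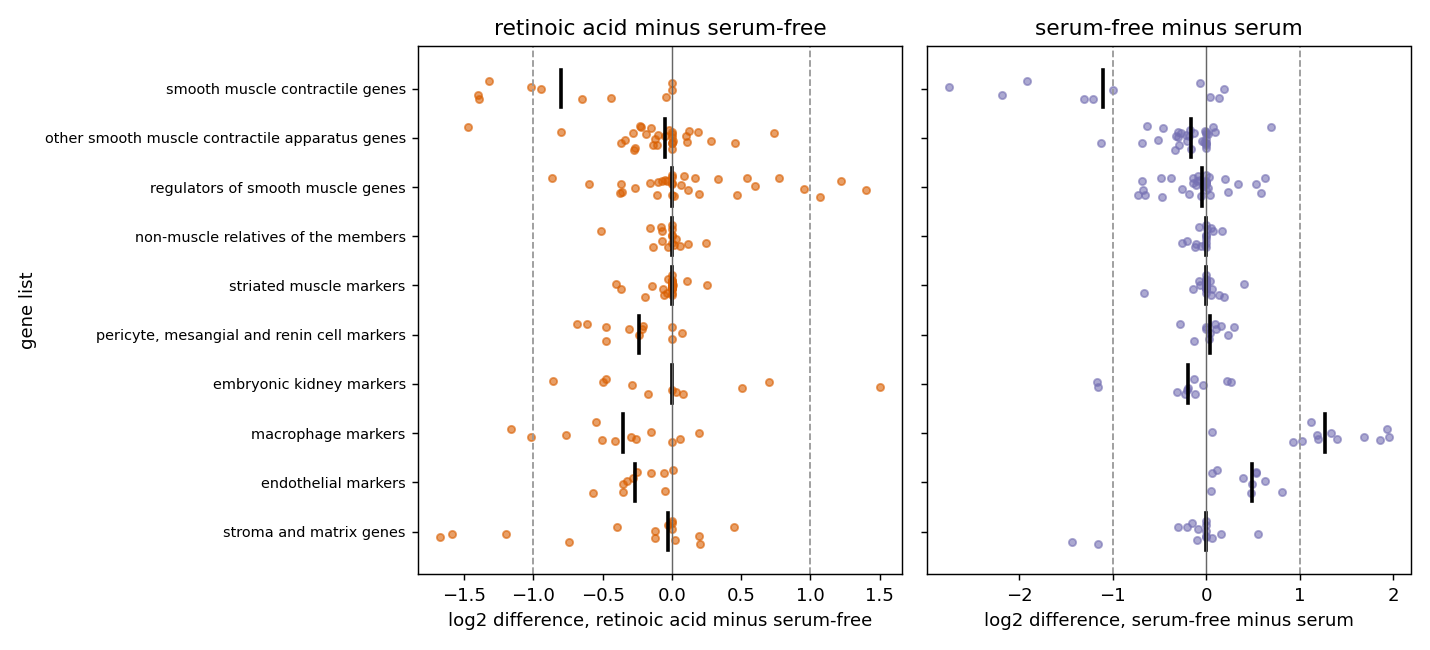
Log2 difference of each gene (points) in each gene list (rows), for retinoic acid minus serum-free on the left and serum-free minus serum on the right, with black bars at list medians and dashed lines at 2-fold; vertical scatter within a row is for legibility. The contractile genes have the lowest median of the lists shown in both panels (-0.80 and -1.10), and the macrophage markers have the highest in the right panel (1.27).

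The genes with profiles most like those of Acta2 and Tagln were sought among 9953 other genes at or above the floor on at least 1 array. Symbols of unnamed gene models and clones and of multi-copy families were left out of this set. Likeness was the Euclidean distance between the 3 log2 values, each centred on its gene's mean, so it describes 3 arrays only. For Acta2 the 6 nearest were Kcne3, a potassium channel subunit, at 0.40, Lox, which cross-links collagen and elastin, at 0.49, the Wnt antagonist Dkk1 at 0.55, the matrix-associated factor Ccn2 at 0.58, Prss35 at 0.59 and Map3k7cl at 0.59. Within the contractile group Tagln was at 0.47 from Acta2, farther than Kcne3.

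For Tagln the nearest of these other genes was Ccn2 at 0.46, followed by Map3k7cl at 0.58, Lox at 0.75, Kcne3 at 0.76, the amino acid transporter gene Slc7a3 at 0.89 and Ccn1 at 0.95. Actg2, at 0.26, was nearer to Tagln than any of them. The levels of Ccn2 were 8.27 with retinoic acid, 8.98 in serum-free medium and 11.03 in serum, and those of Lox were 7.83, 8.57 and 10.01. Kcne3 was at 5.97, 6.91 and 8.15, under the floor except in serum. Map3k7cl, Prss35 and Slc7a3 also reached the floor in serum alone. These genes entered the search through the medium where they were high, so their distances are uncertain. Lox, Ccn2, Kcne3 and Map3k7cl stood on both lists.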

How the data were processed

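RNA of E11.5 mouse kidneys cultured for 48 h was measured on 3 Affymetrix arrays, 1 per medium, from 250 ng total RNA per the labels' protocols. The deposited intensities, 1 per probe set and not log-transformed, were made by the authors with Affymetrix Expression Console 1.1 and RMA (background correction, quantile scaling, median polish), per the submitters' processing notes; the sources used here state no settings. Median polish often returns equal values on different arrays and can understate small differences. From 35556 probe sets, 21789 carry exactly 1 symbol, 1621 several and 12146 none in the platform annotation, and the last 2 kinds were left out. The probe set with the highest mean stood for a gene. Log2 was taken with no pseudocount. Calls used size only, and the size rule was tested on simulated data. Python 3.11.15, pandas 2.3.3 and limma 3.58.1 (cyclic loess) were used. The genes and lists were chosen with earlier results of these data known. Other genes named are those past 2-fold and up to 4 with the largest difference per list and comparison, at or above the floor. Macrophage, endothelial and kidney lists are given mainly as counts. The 6 nearest profiles are named too. Single genes were also picked as examples after their values were seen (Nexn, Mylk, Smtn, Cald1, Srf, Mrtfa, Mrtfb, Pdgfrb, Rgs5, collagens). Further examples are Itga8, Npnt, Actb, Tpm4, Pax2, Foxd1, Myod1, Myog, Ckm, Ttn and the sex transcripts. Alternatives were the pseudocount, scaling, probe set, floor and size of a change.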

Additional observations from a re-analysis of the deposited data

How the results depend on the processing

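No paired analysis was possible because each medium has 1 array. Leaving out a replicate was not possible for the same reason. The counts of 2, 5 and 5 genes at least 2-fold lower (retinoic acid against serum-free, serum-free against serum, retinoic acid against serum) and the medians over the 10 genes held with 32 added to the intensities, under cyclic loess, with arrays centred on their medians and with the mean of probe sets, within the 95th percentile of disagreement between probe sets of 1 gene (0.28, 0.28 and 0.33). For retinoic acid against serum-free the count was 4 with no floor, 4 with the floor at the 40th percentile, and 4 at 1.5-fold. The genes were not the same: Acta2, Actg2, Tagln and Cnn1 with no floor, but Acta2, Tagln, Myl9 and Tpm2 at 1.5-fold. With both values required to reach the floor the counts became 1, 3 and 2, because Actg2, Tagln and Cnn1 drop out where their low values lie under it. No share of all genes is given for these counts, nor for those at the 40th percentile and at 1.5-fold. The median for retinoic acid against serum was -2.70 over the 7 genes that reached the floor, a set that leaves out Myh11, Lmod1 and Myocd. Of 120 values of single genes under these settings, 30 used the mean of probe sets and could not move. In all, 114 moved by less than that disagreement and 6 moved more, all 6 with 32 added: Actg2, Cnn1 and Tagln. For retinoic acid against serum, Actg2 became -2.95 and Tagln -2.85. Signal near background limits Myh11, Lmod1 and Myocd on all arrays.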
